A study of Mus musculus with 69 samples.

Results

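The choroid plexus epithelium genes described here are 10 genes given by symbol: Kcnj13, F5, Slc4a5, Tmem72, Folr1, Aqp1, Steap1, Kl, 1500015O10Rik and Col8a2. Each symbol was looked up in the gene-name column of the deposited count table, and all 10 were found among its 9930 complete gene records. All 10 also passed the filter on low counts in every comparison. The rule uses no measured value, but the genes were picked with earlier results of these data known.

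The choroid plexus is a fringe of epithelium around a vascular core that hangs in the brain ventricles and secretes cerebrospinal fluid. Its epithelial cells move ions and water from blood to fluid with channels and transporters on their apical and basolateral faces, and they carry nutrients such as folate into the brain and release proteins into the fluid. The hippocampus borders the lateral ventricle, where the plexus attaches close to the fimbria, so a dissected hippocampus can carry pieces of plexus with it. In bulk RNA, fewer cells of a type and less RNA per cell cannot be told apart.

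Hippocampal RNA was sequenced from 69 male mice, 1 library per animal, at postnatal day 66 (P66) and postnatal day 22 (P22), the day of weaning. The knockout animals lack Cdh13, the gene of the adhesion protein T-cadherin, and the wildtype animals carry it. The strain and the kind of deletion are not given among the sources at hand. Separated litters were taken from the dam for 3 h a day on P1 to P14, at a random time of the light phase, and control litters were handled and otherwise left alone. At P66 there were 7 separated knockout, 7 control knockout, 10 separated wildtype and 7 control wildtype animals. At P22 there were 10 separated knockout, 9 control knockout, 11 separated wildtype and 8 control wildtype animals. They came from 2 breeding cohorts, each with animals in all 8 groups. The hippocampus and 5 other regions, not analysed here, were cut from frozen slices about 1 mm thick.

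The table as held covers genes of chromosomes 1 to 8, and library totals over that part were 11283370 to 16365465 counts, with a median of 13278074. Levels are given in CPM (a counts-per-million unit) of that part, scaled by TMM, a normalization that sets the typical gene equal between libraries. No level of Cdh13 was analysed here, and genotypes were taken as labelled. The mean log2 CPM of the 10 genes had r = -0.120 with the library total over the 69 libraries. The labels name no litters; p-values treat animals as independent although separation was applied to whole litters.

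On GRCm38, 1500015O10Rik lies at chr1:43730602-43742578, Kcnj13 at chr1:87386363-87394729 and F5 at chr1:164151838-164220277. Col8a2 lies at chr4:126286793-126314330, Steap1 at chr5:5736317-5749326 and Kl at chr5:150952607-150993817. Aqp1 lies at chr6:55336432-55348555, Slc4a5 at chr6:83219828-83304945, Tmem72 at chr6:116679063-116716913 and Folr1 at chr7:101858331-101870788. These spans are whole genes, all protein-coding. Kcnj13, Steap1, Tmem72 and Folr1 are on the minus strand and the other 6 on the plus strand. In GENCODE M21, 49.1% of the exon bases of Kcnj13 are also exon bases of Gigyf2 on the opposite strand, a gene with a median of 2486 counts per library. Whether the counting used strand is not given in the sources used here, so reads of the pair may not be separable. The lowest level of Kcnj13 was 0.502 CPM. The part of Gigyf2 reads in the Kcnj13 counts was not tested. The other overlap of exons was 3.53% of F5 with an antisense lincRNA, Gm16548.

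Promoter windows of 300 bases, 250 before and 50 after the RefSeq start (GRCm38.p6), were found for 9 of the 10 genes, 1500015O10Rik under its RefSeq symbol Ecrg4; Folr1 had no entry. They are shown for Kcnj13 and Slc4a5, the 2 windows holding TATAAA, and for F5 and Aqp1, whose ratio differed between the ages. Capitals mark matches of TATAAA on either strand, the letters of a TATA box.
Kcnj13, chr1:87394680-87394979, minus strand: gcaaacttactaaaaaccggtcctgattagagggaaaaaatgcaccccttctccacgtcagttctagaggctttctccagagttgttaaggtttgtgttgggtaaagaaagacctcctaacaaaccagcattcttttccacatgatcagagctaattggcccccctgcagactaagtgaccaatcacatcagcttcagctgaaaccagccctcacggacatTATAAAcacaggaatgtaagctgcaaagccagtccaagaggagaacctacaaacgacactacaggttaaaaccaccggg
Slc4a5, chr6:83237125-83237424, plus strand: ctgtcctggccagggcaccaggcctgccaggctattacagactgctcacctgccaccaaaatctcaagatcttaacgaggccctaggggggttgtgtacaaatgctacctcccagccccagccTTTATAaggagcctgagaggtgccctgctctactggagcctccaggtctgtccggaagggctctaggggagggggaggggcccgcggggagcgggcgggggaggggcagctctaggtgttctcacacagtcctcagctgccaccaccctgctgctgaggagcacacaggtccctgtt
F5, chr1:164151585-164151884, plus strand: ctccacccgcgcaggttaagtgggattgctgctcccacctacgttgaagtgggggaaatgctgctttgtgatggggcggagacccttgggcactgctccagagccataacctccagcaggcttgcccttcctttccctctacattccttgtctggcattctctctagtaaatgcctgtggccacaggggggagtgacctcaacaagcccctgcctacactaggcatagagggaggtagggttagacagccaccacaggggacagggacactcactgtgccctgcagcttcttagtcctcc
Aqp1, chr6:55336049-55336348, plus strand: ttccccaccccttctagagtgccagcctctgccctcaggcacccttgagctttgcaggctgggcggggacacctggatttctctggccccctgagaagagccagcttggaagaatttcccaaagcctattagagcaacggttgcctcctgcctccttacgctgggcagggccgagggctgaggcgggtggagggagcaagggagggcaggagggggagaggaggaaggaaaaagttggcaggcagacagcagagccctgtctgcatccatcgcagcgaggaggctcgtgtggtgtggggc
The motif TATAAA was present in 2 of the 9 windows, those of Kcnj13 and Slc4a5, and in 13.6% of 32851 RefSeq promoter windows of the same length. In Slc4a5 it is read on the opposite strand, as TTTATA, and the RefSeq start used lies inside the GENCODE span of the gene. TAATCC, the core letters bound by OTX2, a transcription factor of the choroid plexus, was searched on both strands as well; it was present in 0 of the 9 windows, and so overlapped no TATAAA there, against 7.06% of all windows. These are letter matches in short windows and say nothing of binding. In base composition the windows spanned 46% G and C in Kcnj13 to 72.3% in Steap1, against a median of 52.7% over all windows. Steap1 held 33 CG pairs and Col8a2 32, while F5 held 4 and Kcnj13 5, against a median of 7. The windows of these genes thus differed widely in composition.

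Per kilobase of exon, levels differed between the genes by more than an order of magnitude. The highest median over the 69 libraries was 32.6 CPM per kb, of 1500015O10Rik, which encodes augurin, the precursor of a secreted peptide. Kcnj13 had a median of 11.4, Kl 10.8, Folr1 7.11 and Aqp1 6.45 CPM per kb. Col8a2 with 3.39, Steap1 with 3.19, Slc4a5 with 3.17 and F5 with 3.03 CPM per kb were close to each other. Tmem72 was lowest with 1.34 CPM per kb, but its annotated exons add up to 17177 bases, so that this value depends on which transcript is made.

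Kcnj13, Slc4a5 and Aqp1 encode transport proteins of ions and water. Slc4a5 encodes the sodium bicarbonate cotransporter NBCe2, Kcnj13 the inward rectifier potassium channel Kir7.1, and Aqp1 the water channel aquaporin 1. At P66, Slc4a5 had 4.09, 6.997 and 51.8 CPM in separated knockout libraries (lowest, median and highest), 2.41, 16.7 and 41.8 in control knockout, 0.502, 15.9 and 32.7 in separated wildtype, and 9.77, 24.03 and 33.9 in control wildtype libraries. At P22, Slc4a5 had 2.13, 12.3 and 49.8 CPM in separated knockout libraries, 2.49, 32.5 and 53.02 in control knockout, 4.11, 21.6 and 33.6 in separated wildtype, and 5.90, 12.96 and 38.8 in control wildtype libraries. All 8 groups overlapped, and each group except control wildtype P66 held libraries both below 6 CPM and above 30 CPM. Kcnj13 ran from 0.502 to 42.04 CPM over the 69 libraries, with group medians between 7.56 CPM in separated knockout P66 and 25.2 CPM in control knockout P22 libraries.

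Aqp1 showed a similar spread within groups. At P66, Aqp1 had 3.67, 6.50 and 37.8 CPM (lowest, median, highest) in separated knockout libraries, 2.21, 12.1 and 31.2 in control knockout, 0.573, 11.5 and 23.7 in separated wildtype, and 8.57, 17.4 and 22.9 in control wildtype libraries. At P22, Aqp1 had 2.13, 13.2 and 48.2 CPM in separated knockout libraries, 2.72, 32.6 and 60.6 in control knockout, 4.11, 20.8 and 37.9 in separated wildtype, and 5.05, 14.6 and 37.9 in control wildtype libraries. The highest values were those of knockout animals at P22, but the same groups reached down to less than 3 CPM.

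A folate receptor and a hormone coreceptor follow. Folr1 encodes folate receptor alpha, which takes folate across the plexus. Kl encodes klotho, the coreceptor of the hormone FGF23, and klotho is also made by neurons. Folr1 ran from 0.502 to 60.2 CPM over all libraries, with group medians from 7.77 CPM in separated knockout P66 to 33.9 CPM in control knockout P22 libraries. At P66, Kl had 60.6, 78.6 and 265.5 CPM (lowest, median, highest) in separated knockout libraries, 54.7, 113.4 and 197 in control knockout, 48.2, 111.3 and 174.8 in separated wildtype, and 96.8, 143 and 203.6 in control wildtype libraries. At P22, Kl had 39.4, 71.4 and 187.9 CPM in separated knockout libraries, 43.7, 133.8 and 227.5 in control knockout, 49.3, 88.9 and 132.5 in separated wildtype, and 51.2, 78.3 and 158.4 in control wildtype libraries. Kl therefore had the narrowest range of the 10 genes: its highest library was 6.74 times its lowest, against 29 times for Col8a2, the next narrowest, and 294 times for Tmem72, the widest.

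Secreted and matrix proteins are encoded by F5, coagulation factor V, by 1500015O10Rik and by Col8a2, the alpha 2 chain of collagen VIII. At P66, F5 had 4.36, 14.6 and 107.8 CPM (lowest, median, highest) in separated knockout libraries, 3.69, 32.3 and 82.4 in control knockout, 1.79, 28.3 and 63.9 in separated wildtype, and 20.97, 45.3 and 67.7 in control wildtype libraries. At P22, F5 had 2.89, 15.2 and 60.3 CPM in separated knockout libraries, 4.003, 39.5 and 65.4 in control knockout, 4.97, 20.1 and 38.8 in separated wildtype, and 7.96, 19.8 and 56.3 in control wildtype libraries. F5 had its highest group median in control wildtype P66 libraries, where 8 of the 10 genes had it in control knockout P22 libraries. 1500015O10Rik ran from 1.43 to 110.4 CPM and Col8a2 from 1.58 to 45.7 CPM.

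The remaining members are Steap1, a membrane protein of the metalloreductase family STEAP, and Tmem72, a transmembrane protein. Steap1 ran from 0.234 to 12.6 CPM and had group medians between 1.77 CPM in separated knockout P66 and 6.33 CPM in control knockout P22 libraries. Tmem72 ran from 0.215 to 63.2 CPM, with group medians of 8.62 CPM and 41.9 CPM in the same groups. The groups overlapped for each of these genes, and within groups the coefficient of variation of single genes ran from 27.6% for Kl in control wildtype P66 libraries to 109.8% for F5 in separated knockout P66 libraries.

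**Figure D1:**
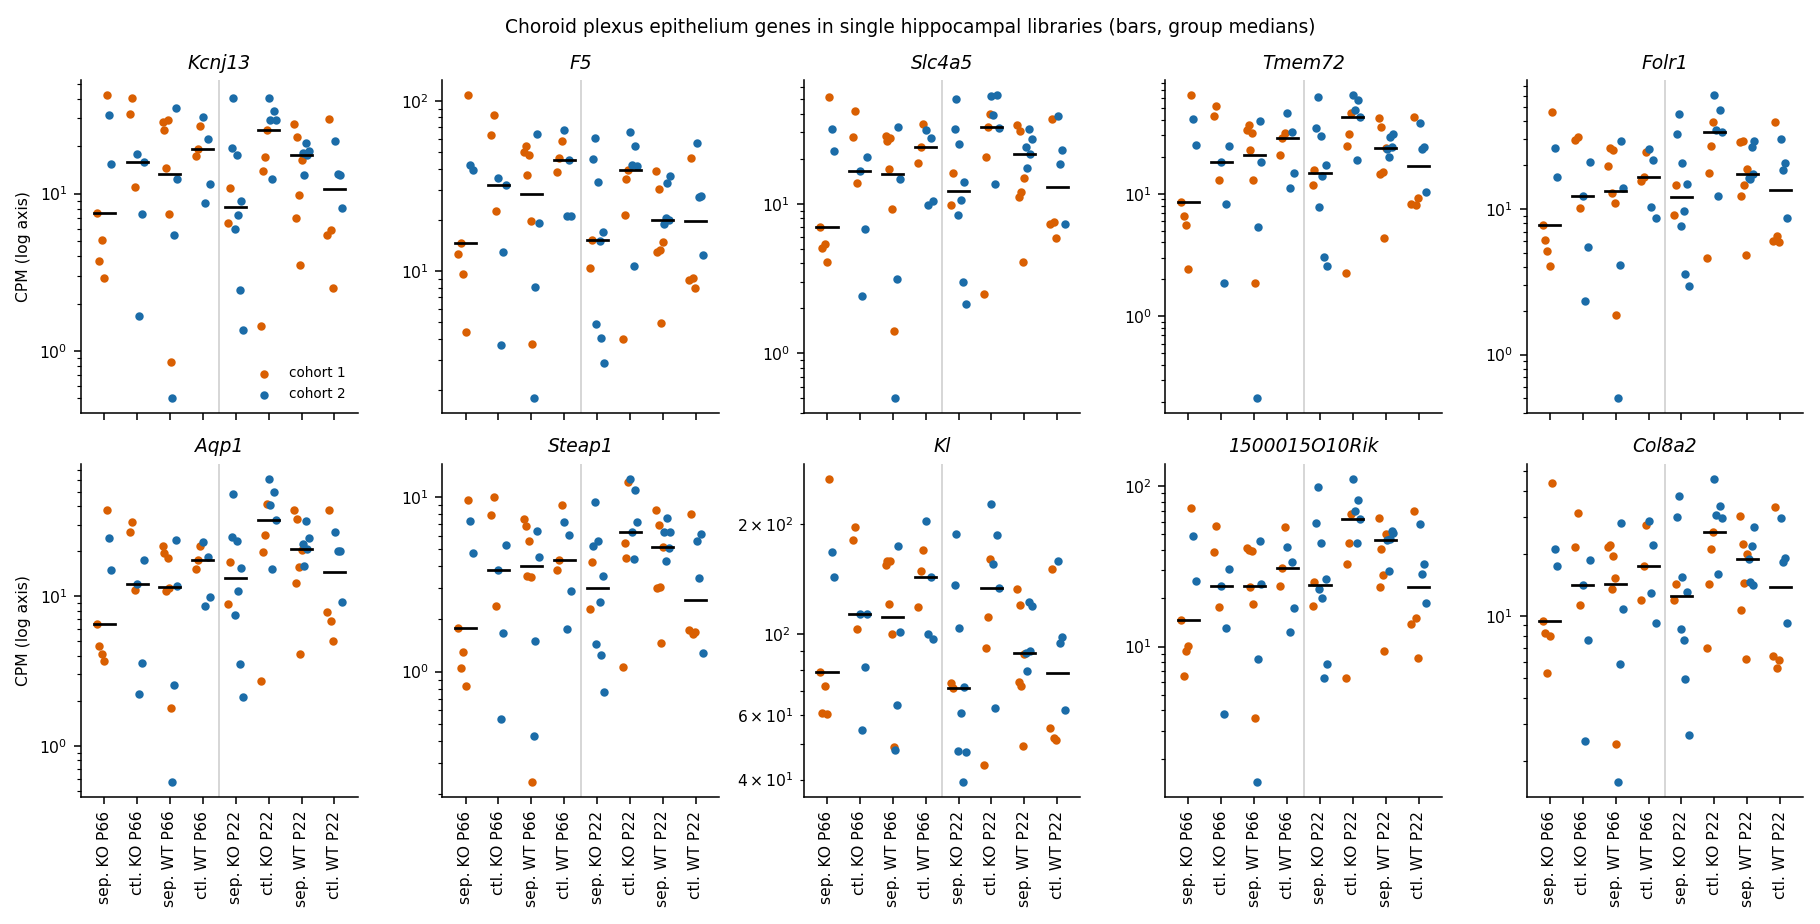
CPM (log axis) of the 10 genes in each of 69 libraries by group; sep., separated; ctl., control; KO, Cdh13 knockout; WT, wildtype; points, animals coloured by breeding cohort; bars, group medians. All groups overlap for every gene, and the lowest Tmem72 value, 0.215 CPM, belongs to a separated wildtype P66 library.

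Single animals differed far more than groups. The mean log2 CPM of the 10 genes was highest in animal 10 of cohort 2 in control knockout P22 (5.87), animal 58 of cohort 1 in separated knockout P66 (5.76) and animal 12 of cohort 2 in separated knockout P22 (5.66). It was lowest in animal 42 of cohort 2 in separated wildtype P66 (0.34), animal 57 of cohort 1 in separated wildtype P66 (1.31) and animal 42 of cohort 2 in control knockout P66 (1.64). The highest libraries named were all of knockouts, from both ages, both rearing groups and both cohorts. The lowest named were all of P66 animals, from both genotypes, both rearing groups and both cohorts. In the animal with the lowest mean, Folr1 had 0.502 CPM, Aqp1 0.573, Slc4a5 0.502 and Tmem72 0.215 CPM, close to absence, while Kl still had 48.2 CPM. In the animal with the highest mean, Folr1 had 60.2 CPM, Aqp1 60.6, Slc4a5 52.55, Tmem72 63.2 and Kl 227.5 CPM. Of the 10 libraries with the highest mean, 5 were control knockout P22 animals, and of the 10 with the lowest, 3 were separated wildtype P66 animals. The 8 groups and the cohort together accounted for 10.5% of the variance of this mean, and 89.5% lay between animals of the same group and cohort. Some share arises even without any difference, because the means of 8 groups and 2 cohorts are taken from the same libraries. For single genes the share within groups and cohorts ran from 83.5% for Aqp1 to 90.6% for Kcnj13.

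The 10 genes varied together from animal to animal. Over the 69 libraries the 45 pairs had Pearson's r of log2 CPM between 0.806, for Kl with 1500015O10Rik, and 0.984, for Slc4a5 with Tmem72, with a median of 0.949. Spearman's rho lay between 0.808 and 0.980, with a median of 0.945. All 45 pairs gave p = 1e-05 for r and for rho in two-sided permutation tests, the smallest p that 100000 permutations can give, and 1e-05 after Benjamini-Hochberg adjustment over the 45. Without the 2 libraries farthest from the median of the gene on the x axis, r was 0.794 to 0.982.

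The pairs were also correlated within each age and cohort. The 45 values of r were 0.935 to 0.988 among the 31 P66 libraries and 0.915 to 0.987 among the 38 P22 libraries. They were 0.846 to 0.980 in cohort 1 and 0.772 to 0.988 in cohort 2, and 0.922 to 0.986 once the means of groups and cohorts were removed. A single component held 94.0% of the variance of the 10 scaled genes, and the second held 3.22%. Slc4a5 followed the mean of the other 9 genes most closely (r = 0.991, residual SD 0.18 on the log2 scale), and Kl least closely (r = 0.888, residual SD 0.31), although F5 had the largest residual SD, 0.46.

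**Figure D2:**
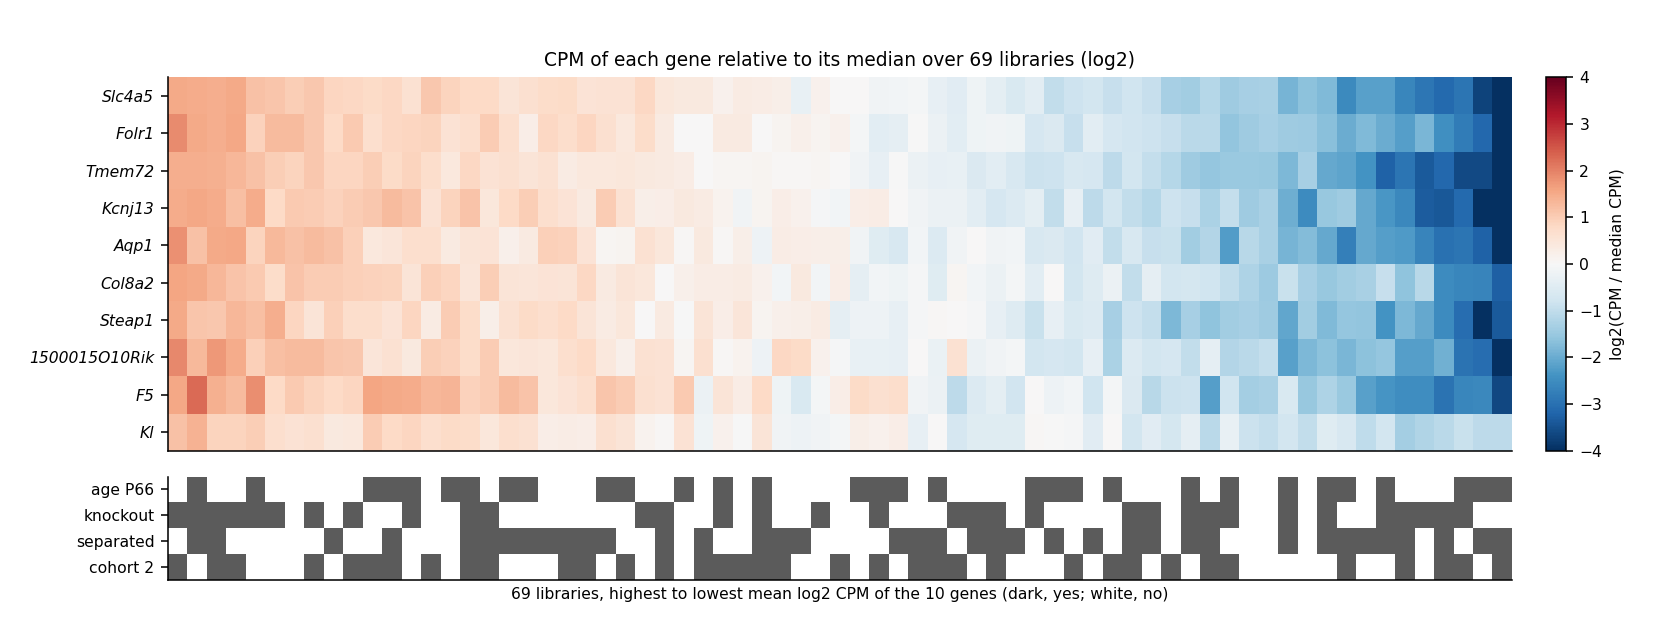
Heat map of log2(CPM / median CPM) for the 10 genes (rows) in 69 libraries (columns, from the highest to the lowest mean of the 10 genes), with colours capped at 4 in either direction; the strips below mark P66, knockout, separated and cohort 2 libraries in dark. The rows change together over the whole range, Kl over the smallest span, and no strip separates the columns.

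Kl was the exception in slope. A change of 1 in the mean log2 CPM of the other 9 genes went with a change of 0.48 in Kl, against 0.82 in Col8a2 and up to 1.24 in Tmem72 for the others. On the linear scale, straight lines of each gene on Folr1 had intercepts between -1.20 and 3.83 CPM for the 8 genes other than Kl. For Kl the intercept was 47.6 ± 4.12 CPM at P66 and 30.9 ± 2.26 CPM at P22 (SE, n = 31 and n = 38), where the lowest single Kl levels were 48.2 CPM at P66 and 39.4 CPM at P22. When each library was left out in turn, the Kl intercept stayed between 46.9 and 48.8 CPM at P66 and between 30.1 and 31.4 CPM at P22. The slope of Kl was 4.74 ± 0.216 CPM per CPM of Folr1 at P66 and 3.30 ± 0.091 at P22. These lines describe the libraries; intercepts and slopes were not tested between ages.

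**Figure D3:**
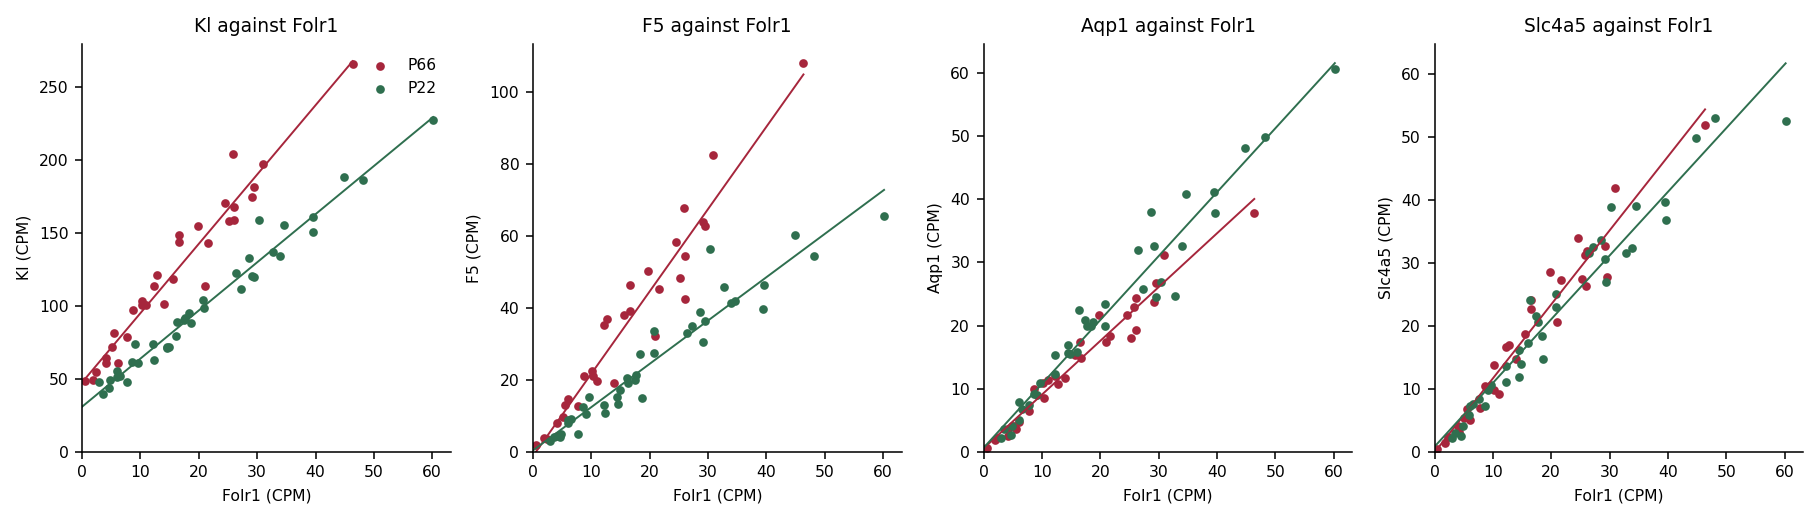
CPM of Kl, F5, Aqp1 and Slc4a5 against CPM of Folr1 in 31 P66 libraries and 38 P22 libraries, with least-squares lines by age. Kl meets the axis at 47.6 CPM at P66 and 30.9 CPM at P22, and F5 and Kl are steeper at P66. Aqp1 is steeper at P22 (slope 0.851 at P66 and 1.01 at P22). Slc4a5 is steeper at P66 (slope 1.17 at P66 and 1.01 at P22).

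Knockout animals were compared with wildtype animals, and separated with control animals, at each age, as the 2 by 2 design of the study sets out. In these 14 contrasts within an age, edgeR's quasi-likelihood test called 0 of the 10 genes at a Benjamini-Hochberg adjusted p under 0.05. DESeq2 and limma-voom also called 0 in each. Over all genes tested, percent called was 0 in 12 of these contrasts, 0.0571 for knockout against wildtype at P66 and 0.371 for separated against control at P66. The counts of the members are therefore read against a background of almost no calls.

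At P66 the estimates of the members were small beside their errors. Knockout minus wildtype had a median log2 change of -0.06 over the 10 genes (range -0.13 to -0.00, against a median of -0.00 over 7001 genes), and Steap1, with the smallest p, had -0.13 ± 0.391 (SE, edgeR adjusted p = 0.925). Separated minus control had a median of -0.27 (range -0.36 to -0.18, all 10 negative), with F5 at -0.36 ± 0.423 (SE, edgeR adjusted p = 0.815). The interaction, which is the separation effect in knockouts minus that in wildtypes, had a median of 0.39 with all 10 positive, and Kl had 0.35 ± 0.448 (SE, edgeR adjusted p = 0.842). No member had an unadjusted p under 0.05 in these contrasts or in the 4 within 1 genotype or rearing group at P66, with edgeR, DESeq2 or limma-voom. With edgeR the share of all genes with such a p was 8.36% for knockout minus wildtype, 12.2% for separated minus control and 4.53% for the interaction. It was 11.2% and 6.7% for separated minus control in knockouts and in wildtypes, and 11.2% and 3.86% for knockout minus wildtype in separated and in control animals. The medians of the members in these 4 were -0.04, -0.43, 0.14 and -0.25. Leaving out single libraries moved them all: without animal 58 of cohort 1 in separated knockout the first was -0.56 and the third -0.35, without animal 64 of cohort 2 in separated wildtype the second was -0.74, and without animal 24 of cohort 1 in control knockout the fourth was -0.50. Without the same animal 58, the medians of knockout minus wildtype and separated minus control over both groups were -0.29 and -0.51. The cohorts differed in sign here: the median of the interaction was -0.52 in cohort 1 alone and 1.59 in cohort 2 alone, where separated knockouts numbered 5 and 2 animals. Without animal 58 of cohort 1 in separated knockout, the median interaction was -0.17, and it was -0.11 without the 6 libraries of the whole series that lay more than 2 log2 units from the median member mean.

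At P22 the averaged contrasts were small as well. Knockout minus wildtype had a median log2 change of 0.14 (range 0.06 to 0.18, all 10 positive), with Folr1 at 0.18 ± 0.302 (SE, edgeR adjusted p = 0.907). Separated minus control had a median of -0.30 (range -0.47 to -0.24, all 10 negative), with Kl at -0.30 ± 0.188 (SE, edgeR adjusted p = 0.999). Since the 10 genes vary together, a common sign is not 10 separate observations. For knockout minus wildtype it also depended on the method: with limma-voom 6 of the 10 were negative, and the median was -0.01 in cohort 1 alone, 0.0055 without animal 12 of cohort 2 in separated knockout and 0.29 without animal 32 of cohort 1 in control wildtype, and 0.36 without the 6 far libraries. Without the same 2 animals the median of separated minus control was -0.49 and -0.16. No member had an unadjusted p under 0.05 in either contrast, with edgeR, DESeq2 or limma-voom, beside 4.11% and 3.08% of all genes with edgeR.

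The larger estimates at P22 were those of the interaction. All 10 genes were negative, with a median of -1.26 against 0.00 over 7036 genes, but 0 were called. 7 had an unadjusted p under 0.05 with edgeR, 5 with DESeq2 and 9 with limma-voom, beside 8.47% of all genes with edgeR. For DESeq2 and limma-voom the share of all genes is not given, so their counts of members have no background here. Steap1 had -1.58 ± 0.543, Aqp1 -1.47 ± 0.613, Kcnj13 -1.37 ± 0.629 and 1500015O10Rik -1.33 ± 0.569 (SE). Folr1 had -1.25 ± 0.593, Col8a2 -1.06 ± 0.518 and Kl -0.78 ± 0.382 (SE). The other 3 genes, Tmem72, Slc4a5 and F5, had smaller estimates relative to their errors. The edgeR adjusted p of all 7 was 0.584. The median was -1.21 in cohort 1 alone and -1.23 in cohort 2 alone, where separated knockouts numbered 2 and 8 animals. The value of cohort 1 thus rests on 2 separated knockouts. Without the 6 far libraries the median was -1.11.

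The estimates that make up the interaction differed in sign between knockout and wildtype animals, and none was called. Separated minus control in knockouts had a median of -0.98 with all 10 negative. Here 9 genes had an unadjusted p under 0.05 with edgeR, 9 with DESeq2 and 10 with limma-voom, beside 4.75% of all genes with edgeR, and 0 were called by any. Aqp1 had -1.05 ± 0.425, Steap1 -1.04 ± 0.376 and Folr1 -1.02 ± 0.412 (SE). F5 was the member without such a p. Slc4a5 had -0.9965 ± 0.438, Tmem72 -0.99 ± 0.434 and Kcnj13 -0.97 ± 0.437 (SE). 1500015O10Rik had -0.91 ± 0.396, Col8a2 -0.82 ± 0.360 and Kl -0.69 ± 0.267 (SE), and the edgeR adjusted p of all 9 was 0.978. In wildtypes the same contrast had a median of 0.26, with 9 of 10 positive, no unadjusted p under 0.05 with any of the 3 tools (6.58% of all genes with edgeR) and Steap1 at 0.54 ± 0.390 (SE, edgeR adjusted p = 0.783). This median was 0.12 without animal 1 of cohort 1 in separated wildtype and 0.68 without animal 32 of cohort 1 in control wildtype. Of the oligodendrocyte genes 7 of 7 had positive estimates in wildtypes (median 0.34, 6 with an unadjusted p under 0.05, 0 called by edgeR), and in the interaction 7 of 7 had negative ones (median -0.37, 2 with such a p, 0 called). They summed to 1366 to 3054 CPM in separated knockout, 1838 to 3123 in control knockout, 1722 to 3385 in separated wildtype and 1451 to 2583 in control wildtype P22 libraries. Their part in the members' estimates was not tested. Knockout minus wildtype among control animals had a median of 0.78 with all 10 positive, and Steap1, the only member with an unadjusted p under 0.05 with edgeR and with DESeq2 (2 members had it with limma-voom), had 0.93 ± 0.399 (SE, edgeR adjusted p = 0.389; background of such p-values 12.1%). Without animal 32 of cohort 1 in control wildtype this median was 1.19. Among separated animals it had a median of -0.47 with all 10 negative and Steap1 at -0.65 ± 0.375 (SE, edgeR adjusted p = 1.00); no member had an unadjusted p under 0.05 with edgeR or DESeq2, and 3 had with limma-voom, beside 2.03% of all genes with edgeR. This median was -0.78 without animal 12 of cohort 2 in separated knockout and -0.19 without the 6 far libraries. These contrasts share animals and are not independent of each other. For DESeq2 and limma-voom the share of all genes with such a p is not given, so their counts of members have no background.

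**Figure D4:**
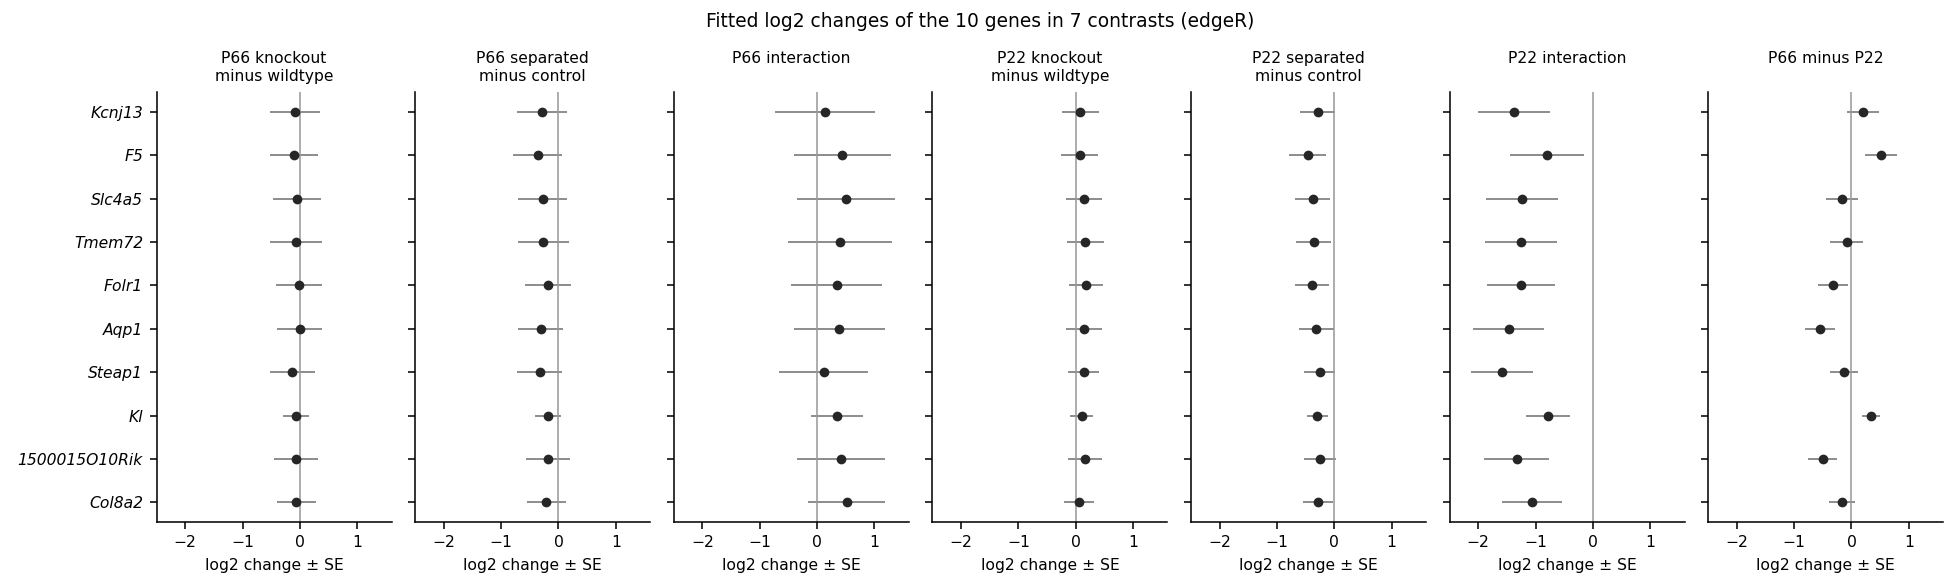
Fitted log2 changes (points) with their standard errors (bars) of the 10 genes in 7 contrasts, from edgeR. The genes of a contrast lie close together within an age, near -1.26 in the median for the interaction at P22, and spread to both sides of 0 for P66 minus P22, from F5 at 0.52 to Aqp1 at -0.54.

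For age the estimates of the members had both signs. P66 minus P22, averaged over the 4 groups of genotype and rearing, was positive for F5 (0.52 ± 0.285), Kl (0.34 ± 0.157) and Kcnj13 (0.20 ± 0.280) and negative for the other 7, with Aqp1 at -0.54 ± 0.264 and 1500015O10Rik at -0.50 ± 0.255 (SE). The median of the 10 was -0.15, against 0.01 over 7131 genes. 0 members were called by edgeR, where percent called was 52 over all genes (25.7% higher and 26.3% lower). Kl (edgeR adjusted p = 0.0594) and Aqp1 (edgeR adjusted p = 0.0775) had an unadjusted p under 0.05 with edgeR, beside 56.9% of all genes. DESeq2 called 0 with 2 such p-values. With limma-voom 1 was called, 1500015O10Rik at -0.65 (limma-voom adjusted p = 0.0489), with 3 such p-values. The shares of all genes with DESeq2 and limma-voom are not given. In the same contrast edgeR called all 7 oligodendrocyte genes lower at P66 (median -1.39). It called 4 of 7 meningeal genes lower (5 negative), 5 of 9 endothelial and mural genes lower and 1 higher (8 negative), and 2 of 8 ependymal genes lower (6 negative). Their part in the members' values was not tested.

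Cohorts gave different signs and calls for the absolute change with age. In cohort 1 alone 9 of the 10 were positive, with Aqp1 at -0.10, and in cohort 2 alone 9 were negative, with Kl at 0.11, F5 at -0.0032 and Kcnj13 at -0.15. The division into 3 positive and 7 negative members over all libraries was thus seen in neither cohort, and Kcnj13 also turned to -0.026 with limma-voom. In cohort 1 alone F5 (1.17 ± 0.422, edgeR adjusted p = 0.0348) and Kl (0.66 ± 0.232, edgeR adjusted p = 0.0303) were higher at P66, with percent called 30.2 over all genes. In cohort 2 alone 1500015O10Rik (-0.89 ± 0.334, edgeR adjusted p = 0.0337) and Aqp1 (-0.89 ± 0.354, edgeR adjusted p = 0.0450) were lower at P66, with percent called 38.5. The median of the 10 was 0.28 in cohort 1 and -0.47 in cohort 2. Without the 6 far libraries of both cohorts Kl alone was called, at 0.36 ± 0.144 (SE, edgeR adjusted p = 0.0323), with percent called 48.7. The difference between F5 and Aqp1 changed less: it was 1.26 in cohort 1, 0.89 in cohort 2 and 1.06 over both.

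The ratio of F5 to Aqp1 shows this in single animals; the pair was chosen after its values were seen and is given without a test. It was 2.46 ± 0.567 at P66, from 1.19 to 3.61, and 1.19 ± 0.295 at P22, from 0.657 to 2.09 (SD, n = 31 and n = 38). All 31 P66 libraries lay above the P22 median of 1.155, and 22 lay above the highest P22 library, so the ages overlapped in part. At P66 the ratio averaged 2.26 ± 0.679 in separated knockout, 2.44 ± 0.674 in control knockout, 2.56 ± 0.605 in separated wildtype and 2.55 ± 0.260 in control wildtype libraries (SD, n = 7, 7, 10 and 7). At P22 it averaged 1.22 ± 0.322 in separated knockout, 1.11 ± 0.228 in control knockout, 1.04 ± 0.216 in separated wildtype and 1.43 ± 0.297 in control wildtype libraries (SD, n = 10, 9, 11 and 8). The groups of an age differed by less than the ages did.

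**Figure D5:**
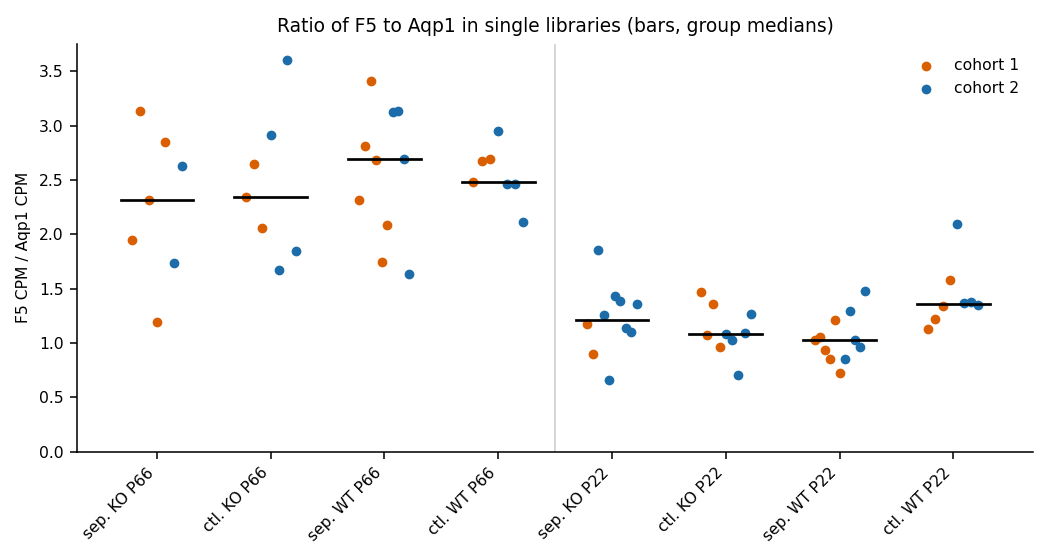
Ratio of F5 CPM to Aqp1 CPM in each library by group, P66 at the left and P22 at the right; points, animals coloured by cohort; bars, group medians. P66 libraries run from 1.19 to 3.61 and P22 libraries from 0.657 to 2.09, with both cohorts in each.

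An edgeR fit of all genes with the mean log2 CPM of the 10 members as a covariate, added after the data were seen, gives each gene's change with age relative to that mean. In it 6 of the 10 members were called, 3 higher and 3 lower at P66, with percent called 53.1 over all genes (26.5% higher and 26.6% lower). F5 was higher at P66 by 0.61 ± 0.057 (SE, adjusted p = 2.12e-14), Kl by 0.44 ± 0.047 (adjusted p = 1.35e-12) and Kcnj13 by 0.28 ± 0.051 (adjusted p = 4.23e-06). Aqp1 had -0.44 ± 0.041 (SE, adjusted p = 2.1e-14), 1500015O10Rik -0.42 ± 0.056 (adjusted p = 2.6e-09) and Folr1 -0.22 ± 0.038 (adjusted p = 9.06e-07). Slc4a5, Tmem72, Steap1 and Col8a2 had changes between -0.08 and -0.04 and were not called. A mean made of these genes forces changes in both directions, so the split into higher and lower is partly set by construction. Each gene is also part of its own covariate, which takes up some of that gene's own variation. These SEs and p-values are therefore not those of an independent covariate. The same signs appeared in both cohorts as plain means of log2 CPM minus the member mean: F5 differed by 0.71 and 0.51 in cohorts 1 and 2, Kl by 0.38 and 0.75, and Kcnj13 by 0.25 and 0.21. Aqp1 differed by -0.39 and -0.49, 1500015O10Rik by -0.31 and -0.50, and Folr1 by -0.21 and -0.26. Over animals, 31 of 31 P66 libraries lay above the P22 median for Kl and 30 for F5, and 31 lay below it for Aqp1.

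A covariate without members shifted the values and kept F5 at the top and Aqp1 at the bottom. With the mean of 23 other choroid plexus genes in the model, F5 was higher at P66 by 0.91 ± 0.098 (SE, edgeR adjusted p = 4.24e-12), Kl by 0.60 ± 0.039 (adjusted p = 5.73e-21) and Kcnj13 by 0.59 ± 0.092 (adjusted p = 1.29e-07). Tmem72 by 0.27 ± 0.101 (adjusted p = 0.0216) and Slc4a5 by 0.23 ± 0.089 (adjusted p = 0.0276) were higher as well, while Aqp1 at -0.15 and 1500015O10Rik at -0.14 were not called. These 5 calls stand beside percent called of 52 over all genes (26.3% higher and 25.7% lower). The lower level of Aqp1 relative to the members was therefore not called relative to the wider list, 8 of whose 23 genes were themselves lower and 2 higher at P66 in the fit without a covariate. The difference between F5 and Aqp1 was 1.05 with the member mean and 1.06 with the other list as covariate. On the mean of the other members F5 had a log2 slope of 1.06 and Aqp1 of 1.09. A covariate that follows the members thus shifts both by similar amounts, so the kept difference is no separate check.

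Relative to the member mean, no member was called for genotype, rearing or their interaction at either age, by edgeR. The largest was F5 at P22, whose interaction was 0.55 ± 0.163 (SE, unadjusted p = 0.00179, adjusted p = 0.380), in the direction opposite to its absolute estimate of -0.80. For separated minus control in wildtypes at P22 F5 had -0.39 ± 0.107 (SE, edgeR adjusted p = 0.55), and for knockout minus wildtype in controls at P22 -0.37 ± 0.115 (SE, edgeR adjusted p = 0.268). These 3 values of F5 and 2 of Steap1 were the ones with an unadjusted p under 0.05 over the 14 contrasts of 10 members. The share of all genes with such a p in this fit is not given, so the values are not read as a result about F5 or Steap1. Adjusting the 10 genes for their own mean sets their median close to 0 in every contrast, so that the fit speaks only of differences between members.

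Other choroid plexus genes ran with the members. Of 40 further genes listed for this epithelium 23 were held and tested, and 21 of them had r over 0.5 with the member mean; their own mean had r = 0.953 and rho = 0.981 with it over 69 libraries (r = 0.954 at P66, 0.970 at P22, 0.971 in cohort 1 and 0.942 in cohort 2). Without the 2 libraries farthest from the median, r was 0.961. In the interaction at P22, 22 of the 23 were negative, with a median of -0.70 and 0 called by edgeR, 8 with an unadjusted p under 0.05. The members thus ran with other genes listed for this epithelium. The members and this list were both chosen with earlier results of these data known, so this is no independent evidence of cell type. Pon1 was the only held gene of the list at 0 in any library, and Slc4a10 and Slc29a4, at r = 0.159 and 0.158 (both well expressed in every library), were the 2 that did not follow.

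Ependymal genes, of the ciliated cells that line the ventricles, also ran with the members. The mean of 8 such genes had r = 0.840 and rho = 0.802 with the member mean, and 7 of the 8 had r over 0.5, with Dnah6, a dynein heavy chain, at 0.902. At P66 they summed to 38.6 to 97.9 CPM in separated knockout, 31.0 to 82.3 in control knockout, 26.6 to 76.01 in separated wildtype and 45.6 to 84.5 in control wildtype libraries. At P22 they summed to 30.1 to 108.2 CPM in separated knockout, 57.6 to 91.1 in control knockout, 45.6 to 102.7 in separated wildtype and 39.6 to 89.7 in control wildtype libraries. In the interaction at P22, 7 of the 8 were negative, with a median of -0.56 and 0 called by edgeR, 3 with an unadjusted p under 0.05. Markers of other tissues did so less: r was 0.361 for 9 genes of endothelium and mural cells, 0.186 for 7 of meninges and fibroblasts, 0.166 for 7 of oligodendrocytes, 0.128 for 7 of thalamus and habenula, and -0.260 for 10 of dentate gyrus and CA field neurons. Within the meningeal list Igf2, a growth factor also made by the choroid plexus, had r = 0.794. Within the endothelial list Slco1c1 had r = 0.565, against a median of 0.165 over the 9 genes. In permutation tests of r, Benjamini-Hochberg adjusted p was 0.0057 for the endothelial and 0.055 for the neuronal list. It was 0.176 for meninges, 0.202 for oligodendrocytes and 0.295 for thalamus and habenula. The neuronal list had rho = -0.300 (adjusted permutation p = 0.021). The neuronal list summed to between 1909 and 2535 CPM in every library. Its single genes varied more than their sum, with Fibcd1 from 129.8 to 542.1 CPM and Calb1 from 211.3 to 436 CPM. The members are given as single genes, so this sum is not the same measure as their ranges. The part of ependyma carried in a sample in the members' differences was not tested.

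Of the 7121 tested genes that are not members, the 10 most like the members by mean r of log2 CPM over 69 libraries were Trpv4 (0.932), Wfdc2 (0.924), Wdr86 (0.922), Sulf1 (0.913), Lbp (0.911), Pla2g5 (0.907), Abca4 (0.905), Wdr63 (0.902), Rbm47 (0.894) and Rd3 (0.885). 5 of these 10 stand in the other choroid plexus list: Trpv4, a cation channel, Sulf1, a sulfatase of heparan sulfate, Lbp, which binds lipopolysaccharide, Abca4, a lipid transporter, and Wdr86. Trpv4 ran from 3.498 to 40.1 CPM and Sulf1 from 12.6 to 106.5 CPM. The median non-member had a mean r of 0.01, and 14 non-members reached that of Kl, the least like member (0.867). Among the members themselves the mean r was highest for Slc4a5 (0.957) and Folr1 (0.952).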

How the data were processed

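The authors deposited a table of raw read counts per gene for hippocampal RNA of 69 animals. Tools named in the submitters' processing notes are cutadapt 1.16, FastQC 0.11.4, limma 3.34.9 and edgeR. Which aligner, counter, strand setting or build was used is not given in the sources used; 99.55% of the identifiers were found in GENCODE M21, 96.5% of these with identical GRCm38 coordinates. The 9930 complete records were used, 1 broken record was left out, and 9 symbols had more than 1 record. Groups came from the labels.

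edgeR 4.0.16 in R 4.3.3 was run on the counts as deposited: filterByExpr (minimum count 10, total 15), TMM, group means plus cohort, quasi-likelihood test, Benjamini-Hochberg over all genes tested, called under 0.05. Each age was fitted by itself (7001 genes at P66, 7036 at P22) and P66 minus P22 over all 69 libraries (7131 genes). Log2 CPM has a prior count of 2. Correlations over libraries used 100000 permutations (numpy 2.4.6, scipy 1.17.1). Code was tested on simulated data. A change with SE and p is printed for members with an unadjusted p under 0.05, or else for the member with the smallest p; the age values of F5, 1500015O10Rik and Kcnj13, the relative fits and the F5 to Aqp1 ratio were named after their values were seen. The most similar genes are the 10 non-members with the highest mean r.

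Alternatives were DESeq2 1.42.0, limma-voom (limma 3.58.1), RLE scaling, tests with all genes kept or with a floor of 1 CPM in at least 7 libraries, models lacking cohort or run on 1 cohort, a common fit of both ages, and leaving out each library. Chosen after seeing the data were the member mean or the other choroid plexus list as covariate, and leaving out the 6 libraries more than 2 log2 units from the median member mean. The members and lists were chosen with earlier results of these data known. At 11283370 to 16365465 counts per library, levels below 1 CPM rest on few counts and carry a large counting error.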

Additional observations from a re-analysis of the deposited data

Results flagged for a closer look

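Animal 4 of cohort 1 in control knockout P22 lay far below the 8 other libraries of its group. Its log2 CPM was 0.66 for Kcnj13 (nearest library 3.65), 1.402 for Slc4a5 (3.77), 1.27 for Tmem72 (4.25) and 1.52 for Aqp1 (3.95). It was 0.27 for Steap1 (2.18), 2.70 for 1500015O10Rik (5.05) and 2.04 for the mean of the 10 genes (4.04). These 7 values stood apart by the size of the gap to the nearest library among 77 combinations of group and gene or mean that were checked; chance marks about 1 in 20, and the 7 share 1 library and genes that vary together. Without this animal Aqp1 was called lower at P66 than at P22 (log2 change -0.59, edgeR adjusted p = 0.0449). In the main fit of this contrast edgeR called 52% of all genes, and the share without this animal is not given.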

How the results depend on the processing

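Calls for age were the ones that moved. They stand beside 52% of all genes called by edgeR in the main fit, and the shares for fits without 1 library are not given. Against 0 of 10 members called for P66 minus P22, limma-voom and the filter of at least 1 CPM in 7 libraries called 1 each, each cohort alone called 2, leaving out the 6 far libraries called 1 (Kl at 0.36, adjusted p = 0.0323, beside 48.7% of all genes), and the member mean or the other list as covariate called 6 and 5. Leaving out 1 library gave 0 to 2, with a call in 21 of 69 fits: 1500015O10Rik and Aqp1 without animal 58 of cohort 1 in separated knockout P66, Aqp1 also without animal 24 of cohort 1 in control knockout P66 and animal 4 of cohort 1 in control knockout P22. Kl (lowest adjusted p 0.0204) was called without any of these: animals 2, 3, 54 and 56 of cohort 1 in separated knockout P66, 42 and 61 of cohort 2 in control knockout P66, 57 of cohort 1 and 42 and 55 of cohort 2 in separated wildtype P66, 58 and 86 of cohort 2 in control wildtype P66, 9 and 12 of cohort 2 in separated knockout P22, 10 and 77 of cohort 2 in control knockout P22, 1 of cohort 1 in separated wildtype P22, and 32 of cohort 1 and 27 of cohort 2 in control wildtype P22. No alternative called a member within an age. The median interaction was -0.058 (member mean, which sets it near 0 by construction) and -0.075 (other list) with a covariate at P22, and 1.59 in cohort 2 alone at P66. With the member mean as covariate, which is made of the same genes and so forces values to both sides of 0, signs differed for separated minus control in knockouts at P22 (Kcnj13 0.0082, Slc4a5 0.064, Tmem72 0.033), the interaction at P22 (Kl 0.040) and separated minus control in wildtypes at P66 (Kl 0.015). With the other list they turned in the same P22 knockout contrast (1500015O10Rik 0.055, Kcnj13 0.070, Kl 0.0033, Aqp1 0.051, Slc4a5 0.11, Tmem72 0.082, Folr1 0.018), the P22 interaction (Kl 0.071) and knockout minus wildtype at P22 (Folr1 -0.011). At P66 signs turned in 1 cohort for knockout minus wildtype (Steap1 0.14, cohort 2), separated minus control (F5 0.11, cohort 2), the interaction (Kl -0.35, cohort 1), separated minus control in knockouts (Steap1 1.09, cohort 2), knockout minus wildtype in separated animals (Col8a2 -0.078, cohort 1, and -0.077 without far libraries) and in controls (Kl 0.14, cohort 1). Leaving out 1 library gave Steap1 -0.68 to 0.040 in separated minus control in knockouts at P66 (turned without animal 24 of cohort 1 in control knockout) and Col8a2 -0.26 to 0.45 in knockout minus wildtype in separated animals at P66 (turned without animal 58 of cohort 1 in separated knockout). The oligodendrocyte list had r = -0.039 in cohort 1 alone. The other causes were not tested. No paired analysis was possible because animal numbers run separately within each cohort and rearing group.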
